A study of Mus musculus with 21 samples.

Results

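Set 3 of the arrays compared the dentate gyrus of mice labelled bitransgenic with that of mice labelled monotransgenic, and was chosen by those labels: 6 arrays, 3 in each group, of the 21 in the series, with all 12499 genes that passed the filter on level. The series measured the effect of overexpressing the Nogo receptor (NgR), the product of *Rtn4r*, on Affymetrix mouse arrays hybridised with total RNA from the dentate gyrus of the hippocampus. The labels of set 3 give only "Monotransgenic" or "Bitransgenic" and a title. They name no doxycycline treatment, age, sex or strain, and do not say which transgene the monotransgenic mice carried. Elsewhere in the series a bitransgenic mouse carries an NgR transgene under a tetracycline-responsive promoter together with tTA, the transactivator that doxycycline blocks. In set 1 the bitransgenic mice had doxycycline removed or were kept on it in the diet, and the monotransgenic mice, also off doxycycline, lacked tTA. In experiment 2 both groups received water, and the bitransgenic mice had never had doxycycline. The labels do not name the promoter that drives tTA. No label states that each array is a different animal, and the p-values then describe the spread among these samples, which may be technical.

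NgR is a receptor held in the neuronal membrane by a lipid anchor. It binds the myelin proteins Nogo, MAG and OMgp, and with co-receptors such as LINGO1 and TROY it signals to the actin of the growth cone. It is known for limiting axon growth and structural plasticity, and its mRNA in the hippocampus is known to fall when neurons are strongly active. Dentate granule cells, which receive the input from the entorhinal cortex and project to CA3, make up most of the neurons of the region dissected.

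The tissue label was checked against granule cell markers. *Prox1*, *Calb1*, *Dock10*, *C1ql3* and *Stxbp6* were measured on all 6 arrays, and the 20 granule cell markers, all of which passed the filter, summed to intensities of 32912 to 40248 on the monotransgenic arrays and 30441 to 33586 on the bitransgenic arrays. Markers of neighbouring tissue were measured too, summing to 1194 to 2117 over the 6 arrays for CA1 (10 genes), 7109 to 10058 for CA3, CA2 and mossy cells (14 genes) and 5287 to 6567 for neocortex and striatum (11 genes). Some single markers of neighbouring tissue were dim, as *Fibcd1* of CA1 at 10.9 to 33.3, and *Ttr* of the choroid plexus ranged from 6.02 to 83.6. Others were bright, as *Pcp4* of the CA3, CA2 and mossy cell list at 4214 to 6187 and *Tbr1* of the neocortex at 184 to 1198. Several of these genes are also expressed in the dentate gyrus, and the part of neighbouring tissue in the results was not tested. The values are intensities on a linear scale as deposited, without a unit. The limit of the filter, which kept the upper 60% of probe sets by mean, corresponds to an intensity of 13.8. All 6 arrays of set 3 carried *Eif2s3y*, a gene of the Y chromosome, at 489 to 622 and *Xist* at 9.59 to 20.3. The log2 ratios of the 3' to the 5' control probe sets of beta-actin, a sign of RNA quality, were 4.45 to 4.63 in the monotransgenic and 4.17 to 4.54 in the bitransgenic group. The median over genes of the SD within a group (log2) was 0.16 in both groups of set 3, against 0.28 and 0.30 in experiment 2.

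*Rtn4r* itself had intensities of 133, 112 and 85.9 in monotransgenic replicates 1 to 3, and 672, 755 and 562 in bitransgenic replicates 1 to 3. All 3 bitransgenic arrays were above all 3 monotransgenic arrays, in the direction the labels imply. The means were 110 ± 23.7 and 663 ± 96.6 (SD, n = 3 each), a difference of 2.47 ± 0.41 (log2, standard error) or 5.56-fold, and monotransgenic replicate 2 lay between the other two. The exact two-sided permutation test gave p = 0.1, the smallest that 20 labelings of 3 against 3 allow. In the limma fit over the 15 arrays of sets 1 and 3, which share one spread per gene, the adjusted p was 0.0826, above the threshold of 0.05. That spread included the bitransgenic arrays of set 1 off doxycycline, at 1469, 329 and 254. With the 6 arrays of set 3 alone the adjusted p was 0.0013, and over all 21 arrays it was 0.0616, so whether *Rtn4r* is called depends on which arrays estimate the spread. It was measured by 1 probe set.

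One gene passed the threshold in set 3, *Lrrtm1*, and it was higher in the bitransgenic group: 1 of 12499 genes, or 0.00800%. *Lrrtm1* encodes a leucine-rich repeat protein of the postsynaptic membrane that binds neurexins and organizes excitatory synapses. Its intensities were 1439, 848 and 1313 on the monotransgenic arrays and 3007, 2356 and 3297 on the bitransgenic arrays. The lowest bitransgenic array stood well above the highest monotransgenic array, and monotransgenic replicate 2 was the lowest of the 6. The difference was 1.34 ± 0.18 (log2), or 2.53-fold (adjusted p = 0.0276). The gene's other two probe sets gave 1.85 and 2.01, and on all 3 probe sets the groups did not overlap. The call depended on the fit: the adjusted p was 0.0837 over all 21 arrays and 0.257 with set 3 alone, and 0.0702, 0.29 and 0.347 without monotransgenic replicate 3, bitransgenic replicate 1 and bitransgenic replicate 3. The difference itself stayed between 1.10 and 1.73 under every alternative.

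The sequence before the start of *Lrrtm1* is shown because this was the only gene called. It comes from RefSeq on GRCm38.p6, plus strand, chr6:77242227-77242476, the 250 bases that end just before the annotated start, with the capitals marking a match to CANNTG, the E-box read by basic helix-loop-helix factors, found on both strands.
Lrrtm1: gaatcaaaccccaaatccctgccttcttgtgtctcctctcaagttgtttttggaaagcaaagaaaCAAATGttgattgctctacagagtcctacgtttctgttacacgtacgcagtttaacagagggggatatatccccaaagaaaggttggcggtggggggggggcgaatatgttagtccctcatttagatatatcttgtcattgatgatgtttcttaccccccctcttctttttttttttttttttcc
This was 1 match, and 66.2% of the 32851 promoter windows of the same length in the table held at least 1. The letters GGGCGG (in 32.7% of windows), TGACG (17.8%) and TATAAA (12.4%) were not in the window on either strand, and none of these searches bears on which factors act there.

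*Lrrtm1* was also higher with the transgene on in the other sets, which share no array with set 3. In set 1 it read 1400, 1446 and 1330 in monotransgenic mice, 1527, 1403 and 1468 in bitransgenic mice on the diet, and 2516, 3965 and 3631 off doxycycline. In experiment 2 it read 762, 813 and 1470 in monotransgenic mice and 4282, 2869 and 3782 in bitransgenic mice. The set 1 difference off doxycycline was 1.20 ± 0.18 (adjusted p = 0.0140, in a comparison where 0.656% of genes were called) and that of experiment 2 was 1.69 ± 0.23 (adjusted p = 0.00639 in the fit over 21 arrays, where 0.0960% of genes were called). *Ctnna2*, the catenin gene whose intron holds *Lrrtm1* on the opposite strand, read 83.4, 202 and 133 on the monotransgenic and 131, 84.7 and 80.4 on the bitransgenic arrays of set 3, and its groups overlapped (-0.37 ± 0.22, adjusted p = 0.623). In set 1 off doxycycline *Ctnna2* fell, by 1.16 on the log2 scale (adjusted p = 0.0268), opposite to *Lrrtm1* there. It was named after its values were seen.

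**Figure D1:**
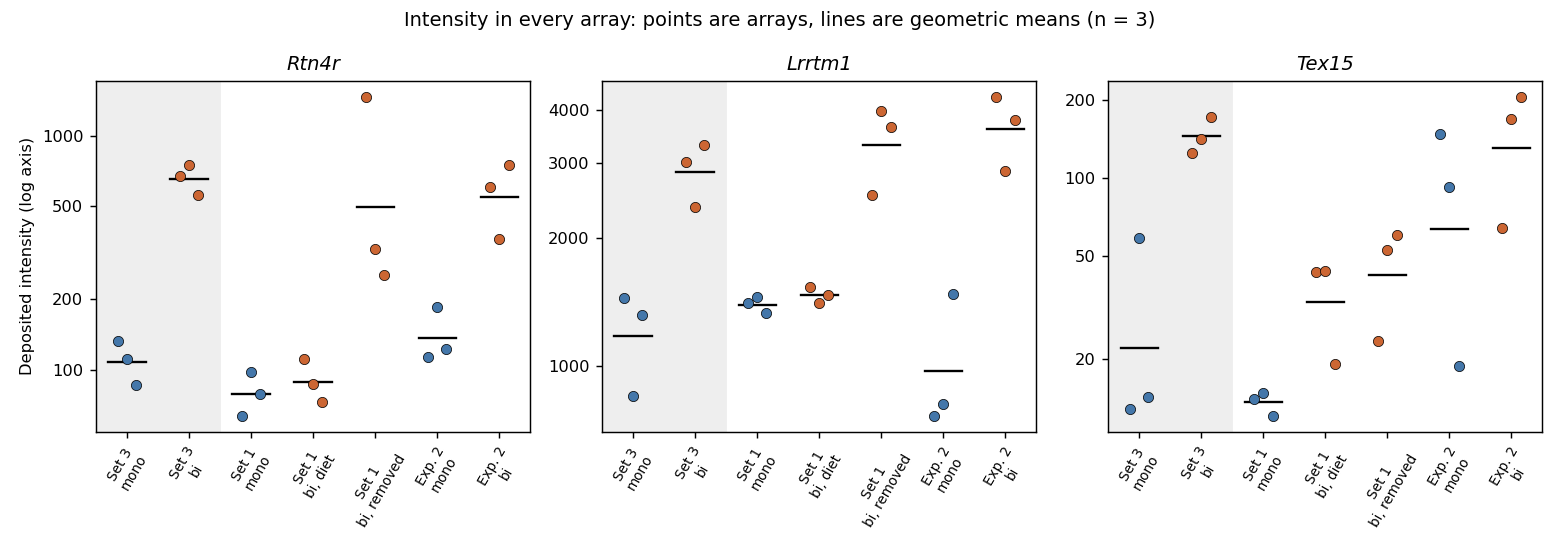
Deposited intensity (log axis) of *Rtn4r*, *Lrrtm1* and *Tex15* in each array of the 7 groups; points are arrays, lines are geometric means of 3 arrays, and the shaded columns are set 3. In set 3 every bitransgenic array lies above every monotransgenic array for the 3 genes, and monotransgenic replicate 2 stands at 58.8 for *Tex15* against 12.8 and 14.4 for the other two.

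*Tex15*, known for meiotic recombination and transposon silencing in germ cells, came next in rank after *Lrrtm1*. It read 12.8, 58.8 and 14.4 on the monotransgenic arrays and 125, 141 and 171 on the bitransgenic arrays. The groups did not overlap, but monotransgenic replicate 2 stood clearly above the other two, and replicate 1 was under the intensity limit of the filter. The difference was 1.91 ± 0.31 (log2), with an adjusted p of 0.0826. It was smaller in both other sets, at 1.07 ± 0.31 in set 1 and 0.92 ± 0.47 in experiment 2, where it passed in neither.

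Over all 12499 genes, 7093 were higher and 5406 lower in the bitransgenic group, with a median difference of 0.03 (log2). An unadjusted p under 0.05 was reached by 1254 genes (10%), where 625 would be reached with no difference and independent genes. The groups did not overlap for 1687 genes (13.5%), 1097 of them higher (8.78%) and 590 lower (4.72%). A difference above 1 log2 unit in size was seen in 62 genes, 34 higher and 28 lower, and in 40 of these the groups overlapped. The plot of difference against level shows *Blnk* and *Lpl* at the extremes and *Lrrtm1* as a high-intensity gene well outside the cloud.

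**Figure D2:**
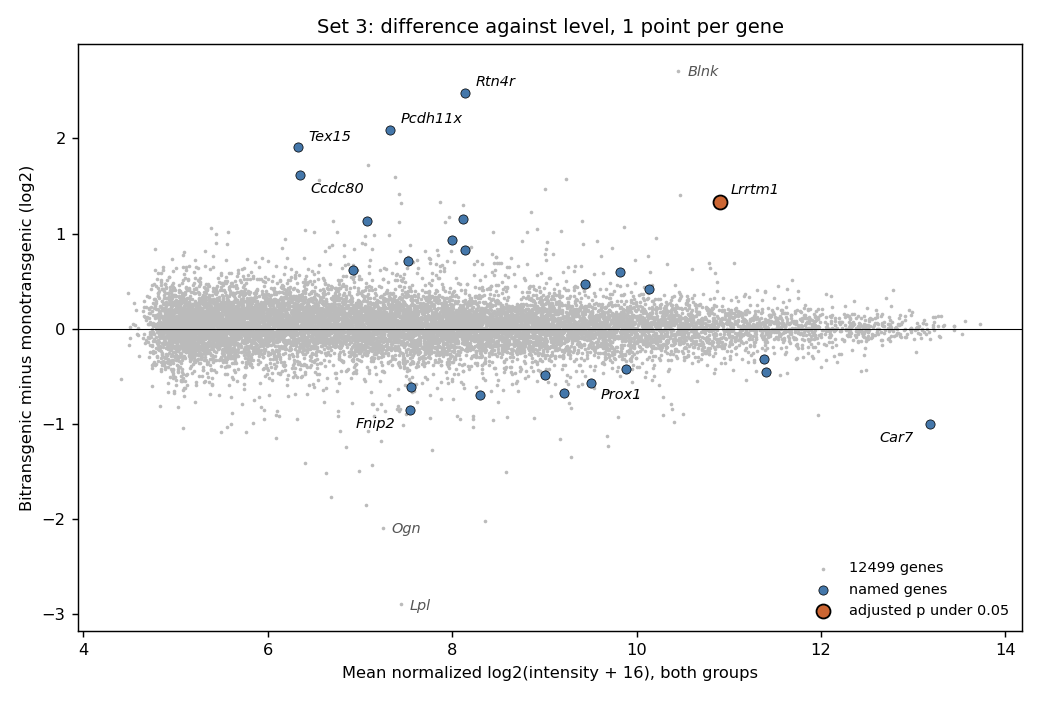
Difference between bitransgenic and monotransgenic arrays of set 3 (log2) against the mean normalized log2 level, 1 grey point for each of 12499 genes, with the 24 named genes in blue and the called gene in orange. *Lrrtm1* is the only orange point, at 1.34, while *Rtn4r* (2.47), *Blnk* (2.71) and *Lpl* (-2.90) lie farther from 0. Their standard errors in the fit over the 15 arrays of sets 1 and 3 were larger, at 0.41, 0.85 and 0.82 against 0.18 for *Lrrtm1*.

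The genes named next are the 24 of lowest p whose groups did not overlap, with *Rtn4r* and *Lrrtm1* among them. None besides *Lrrtm1* passed the threshold, the adjusted p being 0.311 for 19 of them, so their values are a ranking and not a set of changed genes. *Doc2a*, a calcium sensor of transmitter release, read 155, 258 and 215 against 348, 325 and 452 (0.83 ± 0.18). *Zdhhc22*, of the family of enzymes that attach palmitate to proteins, read 135, 272 and 151 against 423, 360 and 448 (1.16 ± 0.25). For both genes monotransgenic replicate 2 was the array of its group closest to the bitransgenic level.

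*Pcnx2*, of the pecanex family of membrane proteins, had the tightest groups: 82.3, 86.6 and 89.8 against 144, 139 and 137 (0.62 ± 0.12, adjusted p = 0.268). *Mfsd4a*, a member of the major facilitator transporter superfamily, read 664, 794 and 708 against 1196, 1056 and 1033 (0.59 ± 0.12, adjusted p = 0.281). Its 4 probe sets all gave a higher value in the bitransgenic group. *Rnf180*, a ubiquitin ligase, read 182, 129 and 233 against 359, 298 and 402 (0.94 ± 0.22), and *Rusc1*, an adaptor with an SH3 domain, 941, 984 and 933 against 1248, 1190 and 1444 (0.42 ± 0.10).

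In 4 others the monotransgenic group itself was split. *Pcdh11x*, a protocadherin, read 24.2, 274 and 22.6 against 356, 294 and 328 (2.09 ± 0.49), and *Ccdc80*, a secreted matrix protein, 14.0, 83.4 and 15.6 against 117, 103 and 183 (1.61 ± 0.38). *Bcat1*, the cytosolic branched-chain aminotransferase, read 43.5, 148 and 70.5 against 196, 169 and 207 (1.13 ± 0.25). *Rassf5*, an effector of Ras and Rap, read 109, 185 and 117 against 222, 205 and 256 (0.71 ± 0.16). In all 4, monotransgenic replicate 2 was the highest of its group and close to the bitransgenic arrays. *Tunar*, a noncoding transcript of neural cells, read 527, 706 and 536 against 840, 791 and 791 (0.47 ± 0.11).

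Of the named genes that read lower in bitransgenic mice, *Prox1*, which specifies and maintains granule cell identity, had 907, 771 and 951 on the monotransgenic arrays and 604, 675 and 509 on the bitransgenic arrays (-0.57 ± 0.13, adjusted p = 0.311). Of its other two probe sets, one gave -0.32 with overlap and a dim one -8.12e-05, which is no difference. *Zbtb20*, a zinc finger factor required for hippocampal neuron identity, read 2893, 3320 and 2658 against 2002, 2480 and 2183 (-0.45 ± 0.10). All 9 of its probe sets were lower in set 3, 4 of them without overlap. *Zmym2*, a zinc finger protein, read 563, 648 and 604 against 453, 451 and 396 (-0.49 ± 0.11), and *Btaf1*, an ATPase that moves the TATA-binding protein, 1121, 1021 and 1072 against 780, 789 and 858 (-0.42 ± 0.10).

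*Car7*, the neuronal cytosolic carbonic anhydrase, was the named gene of highest intensity: 9727, 16808 and 12395 against 5665, 4660 and 7208 (-1.0 ± 0.24, 2.00-fold lower). The 2 probe sets above the filter disagreed, since the dimmer one gave 0.48. *Ncam1*, a cell adhesion molecule of neurons, read 2984, 2651 and 2733 against 2030, 2407 and 2460 (-0.32 ± 0.07), and 3 of its 4 probe sets above the filter were lower. *Adamts20*, a secreted metalloprotease, read 883, 661 and 694 against 445, 538 and 419 (-0.68 ± 0.16).

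*Fyco1*, which links autophagosomes to kinesin, read 519, 348 and 344 against 228, 279 and 219 (-0.70 ± 0.15). *Fnip2*, a partner of folliculin, read 294, 185 and 264 against 107, 178 and 107 (-0.85 ± 0.20). The unnamed transcript *4632427E13Rik* read 224, 217 and 236 against 115, 171 and 143 (-0.61 ± 0.14). In *Fnip2*, monotransgenic replicate 2 and bitransgenic replicate 2 nearly met, while in *4632427E13Rik* the monotransgenic arrays were close together. Of the 15 named genes with more than 1 probe set above the filter, 12 gave the same sign on all of them, *Prox1* counted among these despite that probe set.

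Of the 23 named genes besides *Rtn4r*, 13 were higher and 10 lower in set 3. The difference had the same sign in set 1 off doxycycline in 18, in experiment 2 in 18 and in both in 14, and the opposite sign in both in 1. Over all genes the signs matched in 52.0%, 49.5% and 29.7%. The 23 were chosen by set 3 alone, and no test was made on these counts. In set 1, 4 of the 23 passed the threshold: *Lrrtm1*, *Zdhhc22* (1.52 ± 0.25, adjusted p = 0.0147), *Mfsd4a* (0.55 ± 0.12, adjusted p = 0.0424) and *Ncam1* (-0.36 ± 0.07, adjusted p = 0.0326). In experiment 2, *Lrrtm1* passed alone.

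**Figure D3:**
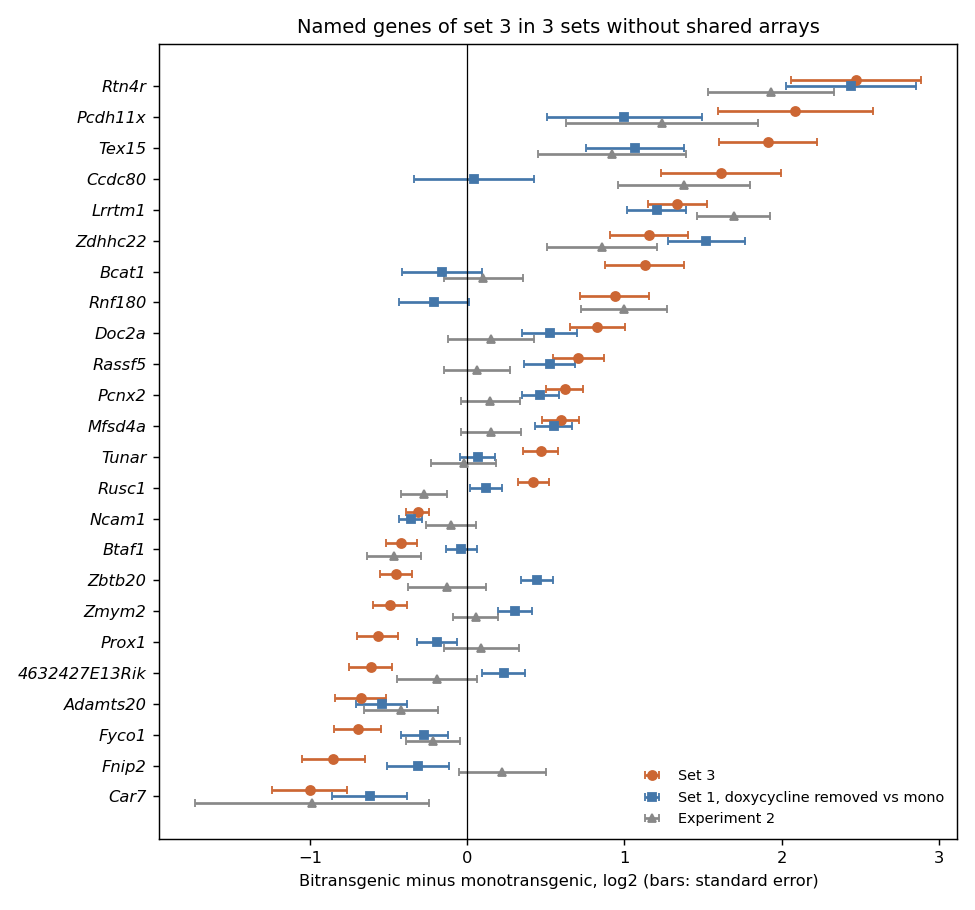
Difference between bitransgenic and monotransgenic arrays (log2, bars are standard errors) of the 24 named genes in set 3 (circles), set 1 off doxycycline (squares) and experiment 2 (triangles), 3 arrays in each group. *Rtn4r* and *Lrrtm1* lie well to the right of 0 in all 3 sets, whereas *Zbtb20* is at -0.45 in set 3 and 0.44 in set 1.

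Monotransgenic replicate 2 stood apart from the other two arrays of its group. It held 27.2% of the residual variance of set 3, against 10.6% to 16.6% for the other 5 arrays. Without it, 360 genes passed the threshold (2.88%), 191 higher (1.53%) and 169 lower (1.35%), whereas leaving out any other array of set 3 left 0 to 2. In 337 of the 360 genes its level was nearer to the bitransgenic mean than to the mean of monotransgenic replicates 1 and 3, and in 168 it lay within the range of the bitransgenic arrays. With all 6 arrays the groups did not overlap in 93 of the 360, beside 13.5% of all genes. Leaving out an array favours genes in which that array differs from its group, so these counts describe where that array lies and are not a test. *Rtn4r* did not follow this pattern, since replicate 2 read 112 for it.

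The genes below have the 6 largest differences in each direction without that array, *Rtn4r* being among the 6 higher ones, and were picked after their values were seen. *Blnk*, an adaptor of B cell receptor signalling, read 217, 3782 and 166 on the monotransgenic arrays and 3913, 2781 and 3428 on the bitransgenic arrays. Without replicate 2 the difference was 4.18 ± 0.48 (log2, adjusted p = 0.000137), and with it 2.71 (adjusted p = 0.361). *Dkk3*, a secreted protein of the Dickkopf family, read 149, 1075 and 244 against 960, 1002 and 1139. Replicate 2 lay inside the bitransgenic range for both genes, and the same split was seen for *Pcdh11x* (3.02 ± 0.17 without it), *Mamdc2* (22.2, 319 and 14.8 against 366, 182 and 204) and *Tmem215* (9.77, 163 and 17.5 against 173, 150 and 137).

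Among the genes lower in bitransgenic mice, *Doc2b*, the calcium sensor related to *Doc2a*, read 1914, 68.9 and 1700 against 81.5, 236 and 172. The difference without replicate 2 was -3.54 ± 0.29 (adjusted p = 1.05e-05). *Cxcl12*, a chemokine that guides granule cell precursors, read 1535, 89.4 and 1648 against 130, 370 and 214. In both genes replicate 2 was the lowest of the 6 arrays, beyond the bitransgenic range.

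*Ogn*, the small matrix proteoglycan osteoglycin, read 824, 41.2 and 652 against 24.1, 143 and 44.9, and *Dsg2*, a desmosomal cadherin, 420, 23.3 and 408 against 21.9, 66.6 and 35.1. *Lpl*, which releases fatty acids from lipoproteins, read 713, 191 and 717 against 79.9, 49.6 and 25.6. *Spata13*, a guanine nucleotide exchange factor, read 751, 54.2 and 317 against 41.2, 65.5 and 59.1. For *Lpl* replicate 2 lay between the groups, and for the other three it lay within the bitransgenic range.

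**Figure D4:**
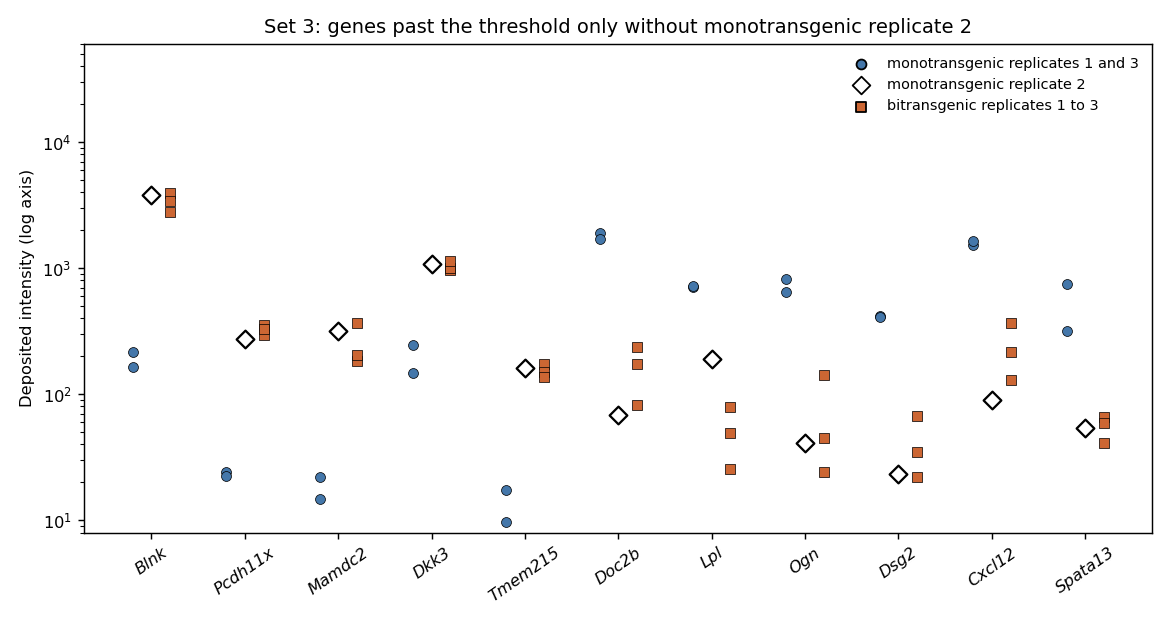
Deposited intensity (log axis) in set 3 of the 11 genes with the largest differences without monotransgenic replicate 2, besides *Rtn4r*; circles are monotransgenic replicates 1 and 3, open diamonds replicate 2 and squares the bitransgenic arrays. The diamond sits with the squares in 10 genes, as for *Blnk* at 3782 against 2781 to 3913, and lies between the groups for *Lpl*, at 191.

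Some of these genes were also split in other groups. *Lpl* was not split in this way in experiment 2, at 75.5, 269 and 193 in monotransgenic and 288, 49.6 and 65.1 in bitransgenic mice. In experiment 2, monotransgenic replicates 1, 2 and 3 read 1668, 1771 and 120 for *Blnk* and 136, 158 and 2273 for *Doc2b*, so that replicates 1 and 2 stood near the bitransgenic arrays of that experiment (1990 to 4067 and 81.1 to 142). In set 1, *Doc2b* read 2636, 2650 and 2194 in monotransgenic mice, 2579, 2589 and 3168 in bitransgenic mice on the diet and 358, 698 and 611 off doxycycline. *Ogn* there read 556, 728 and 636 in monotransgenic mice but 8.54, 26.8 and 16.5 on the diet and 11.7, 26.8 and 24.1 off it. *Ogn* was thus low in bitransgenic mice of set 1 with or without doxycycline, at *Rtn4r* levels on the diet of 111, 87.0 and 73.1. Which transgene the monotransgenic mice of set 3 and experiment 2 carried is not given, and its part in the split was not tested.

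Granule cells differ along the long axis of the hippocampus, and *Lct* and *Trhde* are known to be stronger toward its dorsal and its ventral end. Picked after seeing the data, *Lct* read 3045, 1848 and 3283 against 1524, 1991 and 2202, and *Trhde* 169, 500 and 157 against 622, 467 and 413. Monotransgenic replicate 2 was with the bitransgenic arrays for both genes, low for *Lct* and high for *Trhde*. In experiment 2 the monotransgenic arrays read 456, 398 and 128 for *Trhde*, but 2975, 1370 and 3122 for *Lct*, so replicate 1 was not low for *Lct*. In set 1 *Lct* overlapped, at 2206, 1288 and 2461 in monotransgenic mice and 1593, 3066 and 2568 off doxycycline. *Trhde* there read 173, 133 and 234 in monotransgenic mice and 288, 282 and 279 off doxycycline. The level along the axis at which the tissue was taken is not given in the labels, and its part in the result was not tested.

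The 36 gene lists held 507 distinct measured members, of which *Lrrtm1* rose and none fell. The groups did not overlap in 65 of them, 12.8%, close to the 13.5% of all genes. List medians ran from -0.34 to 0.14 (log2), and in 24 lists the median was within 0.1 of 0, beside a median of 0.03 over all genes.

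**Figure D5:**
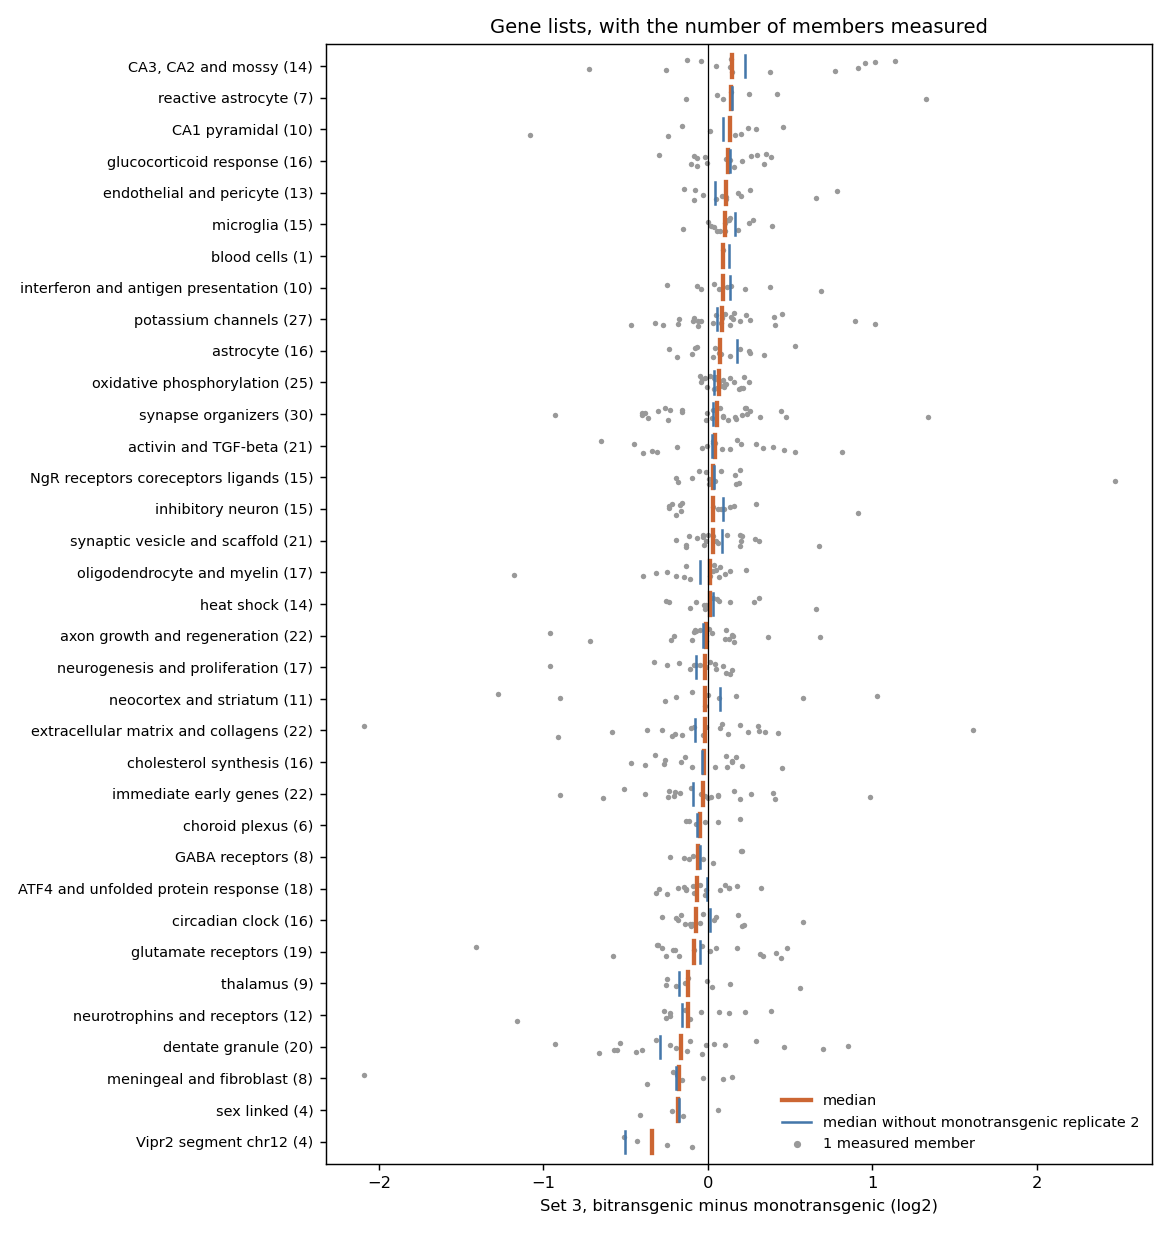
Difference between the groups of set 3 (log2) for each measured member of 35 of the 36 gene lists (grey points), with the list median over 6 arrays (orange) and without monotransgenic replicate 2 (blue); numbers in brackets are measured members. All orange medians but that of the *Vipr2* segment, at -0.34, lie within 0.2 of 0, and the blue bar of the dentate granule list lies farther from 0 (-0.29) than the orange one (-0.16).

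Of the 15 measured genes for NgR, its relatives, co-receptors and ligands, none passed the test, *Rtn4r* included. The ligand genes overlapped between groups: *Rtn4*, which encodes Nogo, stood at 6609 to 7835 in monotransgenic and 6412 to 7853 in bitransgenic mice (0.01), and *Omg*, for OMgp, at 241 to 278 and 187 to 270 (-0.10). Among the receptors, *Rtn4rl1* had a difference of -0.18 and *Rtn4rl2* of 0.20, and their groups overlapped. The co-receptor genes *Lingo1* (0.01) and *Tnfrsf19*, for TROY (0.16), overlapped too. *Lrp1*, another neuronal receptor for myelin proteins, read 129, 109 and 124 against 139, 136 and 132 and did not overlap (0.17 ± 0.11, adjusted p = 0.661). Apart from *Rtn4r*, 9 of the 14 were higher and 5 lower.

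None of the 22 genes of axon growth and regeneration passed, with 10 higher and 12 lower. *Stmn4*, a tubulin-binding protein among them, read 1442, 1734 and 1208 against 1815, 1806 and 1921 (0.36 ± 0.14, adjusted p = 0.433), and the groups did not overlap.

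Of the 30 synapse organizers, *Lrrtm1* rose and the other 29 did not pass, with 17 higher and 13 lower in all. *Lrrtm2*, its relative with the same neurexin partners, read 503, 566 and 595 against 692, 689 and 907 (0.44 ± 0.13, adjusted p = 0.361). *Slitrk2*, another postsynaptic organizer, read 407, 389 and 433 against 372, 368 and 258 (-0.30 ± 0.14, adjusted p = 0.504). In neither did the groups overlap. Among 21 genes of vesicles and scaffolds, *Stx1a*, the syntaxin of transmitter release, read 1104, 1118 and 995 against 1400, 1152 and 1515 (0.31 ± 0.11, adjusted p = 0.395), and no member passed.

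None of the 19 glutamate receptor, 8 GABA receptor and 27 potassium channel genes passed. *Grm2*, a presynaptic metabotropic receptor, read 238, 220 and 244 against 157, 202 and 203 (-0.30 ± 0.14), and *Cacng2*, the AMPA receptor subunit stargazin, 126, 128 and 137 against 159, 154 and 179 (0.31 ± 0.17). *Kcnq5*, a channel of the M current, read 34.7, 99.98 and 28.9 against 156, 99.2 and 102 (1.02 ± 0.31); replicate 2 of the monotransgenic group stood at the bitransgenic level. *Kcnma1* read higher in bitransgenic mice (0.15 ± 0.12), but 2 of its 5 probe sets read lower and the mean of the 5 gave -0.05.

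Among the 22 immediate early genes none passed, with 9 higher and 13 lower. *Gadd45b*, induced by activity, read 89.4, 138 and 53.6 against 209, 180 and 184 (0.98 ± 0.30), *Nr4a2*, a nuclear receptor, 210, 188 and 351 against 147, 136 and 88.0 (-0.90 ± 0.31), and *Ier2* 20.8, 26.4 and 18.4 against 32.8, 31.7 and 38.2 (0.41 ± 0.16). These 3 genes were picked from the members whose groups did not overlap, which were 5 of the 22, beside 13.5% of all genes. Their adjusted p was 0.361, 0.380 and 0.422. Among the 21 activin and TGF-beta genes, *Smad7*, the inhibitory Smad, read 74.7, 74.0 and 64.9 against 95.7, 98.6 and 114 (0.46 ± 0.15), while the receptor genes *Acvr1* (-0.39 ± 0.14) and *Tgfbr1* (-0.45 ± 0.18) were lower without overlap. No member of the list passed.

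Granule cell markers were lower in 14 of 20 and higher in 6, beside 56.7% of all genes higher. Their median was -0.16, and none passed. *C1ql2*, a secreted complement-related protein of mossy fibre synapses, read 886, 135 and 1132 against 201, 289 and 353, while *Calb1*, for calbindin, read 5659, 4115 and 4451 against 4444, 4414 and 4813. *C1ql2* and *Calb1* were picked after their values were seen. *Il16*, a marker that went the other way without overlap, read 158, 298 and 157 against 353, 311 and 313 (0.70 ± 0.20, adjusted p = 0.361). Without monotransgenic replicate 2 the median of the list was -0.29. Fewer cells of a type and less RNA per cell cannot be told apart in these bulk samples. Markers of CA3, CA2 and mossy cells were higher in 10 of 14 (median 0.14), beside 56.7% of all genes. Picked after their values were seen, *Ociad2* (338, 1024 and 264 against 1424, 872 and 780) and *Nrip3* (660, 1856 and 468 against 1759, 1589 and 1489) were higher. The 4 lower markers included *Iyd* (84.7, 16.0 and 62.5 against 15.6, 25.0 and 19.5) and the bright *Pcp4* (6187, 4214 and 5279 against 4910, 4512 and 4871). The summed intensity of the 14 markers ran from 7109 to 8881 in monotransgenic and from 8702 to 10058 in bitransgenic mice, and none passed. Monotransgenic replicate 2 had the highest value of its group for *Ociad2* and *Nrip3* and the lowest for *Iyd* and *Pcp4*.

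No glial or vascular marker passed the test. Of 15 microglial markers 14 were higher and 1 lower, beside 56.7% of all genes higher. Their median was 0.11, against -0.14 in set 1 off doxycycline and -0.02 in experiment 2. Their sums overlapped (3053 to 3905 against 3570 to 3880). *P2ry12*, the purinergic receptor of resting microglia, read 24.9, 17.8 and 20.6 against 38.1, 31.7 and 28.2 (0.39 ± 0.15, adjusted p = 0.429). Sums of the 16 astrocyte markers (8248 to 11044 against 8899 to 10671) and of the 17 oligodendrocyte markers (4546 to 5504 against 4666 to 5298) overlapped as well. The sum of the 13 endothelial and pericyte markers did not, at 1378 to 1512 against 1579 to 1941. Of these markers 9 were higher, beside 56.7% of all genes, and 4 lower, with a median of 0.11. The sum weighs bright members most, and the group mean of *Itm2a* alone was 264 in monotransgenic and 459 in bitransgenic mice. *Itm2a*, an endothelial membrane protein, read 203, 341 and 246 against 566, 456 and 356 (0.79 ± 0.20, adjusted p = 0.322), whereas the tight junction gene *Cldn5* read 75.4, 80.5 and 75.03 against 63.9, 61.6 and 71.3.

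*Serpina3n*, a protease inhibitor of reactive astrocytes, read 98.6, 96.4 and 104 against 229, 259 and 332 (1.32 ± 0.48, adjusted p = 0.398), and monotransgenic replicate 2 did not stand apart for it. The other 6 reactive astrocyte genes measured did not pass either. Meningeal and fibroblast markers summed to 391 to 1589 in monotransgenic and 374 to 525 in bitransgenic mice, the brightest members being *Ogn*, as above, and *Ptgds* (600, 270 and 236 against 263, 297 and 315), with *Dcn* and *Col1a2* near background. Of 25 oxidative phosphorylation genes, 20 were higher, beside 56.7% of all genes, and 5 of these did not overlap, beside 8.78% of all genes, with a median of 0.07 and none past the threshold. *Ndufv1*, a subunit of complex I, read 3779, 3395 and 3446 against 3722, 3734 and 4841 by intensity (0.20 ± 0.07 after normalization). Another of its probe sets gave 0.17 without overlap, and its dimmest gave -0.009 with overlap.

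The 4 measured genes of the chromosome 12 segment near *Vipr2* were all lower, with a median of -0.34, and none passed. *Esyt2* read 39.2, 34.0 and 60.3 against 24.8, 30.6 and 15.9 (-0.51 ± 0.22, adjusted p = 0.463), and *Ncapg2* 33.7, 30.8 and 70.2 against 18.0, 37.8 and 21.5 (-0.43 ± 0.25). Monotransgenic replicate 2 was the lowest of its group for *Esyt2* and *Ncapg2*. The probe sets of *Esyt2* and *Ncapg2* were dim. The brighter *Ptprn2* of the same segment read 454, 324 and 282 against 391, 342 and 249 and overlapped (-0.09 ± 0.21). In set 1 off doxycycline the list median was -0.45, and in experiment 2 it was -0.04.

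The difference in set 3 was compared gene by gene with that in set 1 off doxycycline by a test of the difference itself. No gene passed (0%) in limma over 15 arrays, 1239 had an unadjusted p under 0.05, and the smallest adjusted p was 0.143. *Zbtb20* ranked first, with -0.45 in set 3 and 0.44 in set 1, a difference of -0.90 ± 0.14. Its set 1 values were 2315, 2132 and 1959 in monotransgenic mice and 2957, 2801 and 3208 off doxycycline, so in set 1 the groups did not overlap in the other direction, and 7 of its 9 probe sets were higher there. *Zmym2* had -0.49 and 0.30 (difference -0.79 ± 0.15, adjusted p = 0.283). *Tprn* had 0.77 and -0.93, *Dsel* -0.16 and 0.43, and *Ccdc71l* -0.37 and 0.54.

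Against experiment 2 no gene passed either (0%) in limma over 21 arrays, 1011 had an unadjusted p under 0.05, and the smallest adjusted p was 0.476. The 5 genes of lowest p were *Gtpbp6* (0.04 in set 3 and -1.63 in experiment 2), *Car3*, a carbonic anhydrase (0.26 and -1.53), *4930432L08Rik* (0.14 and -1.18), *Scarb1*, the receptor for high-density lipoprotein (0.39 and -0.60), and *Zc3h18* (0.19 and -0.85). In 4 of these genes the groups of set 3 overlapped, *Scarb1* being the exception. Experiment 2 held 53.3% of the residual variance of all 21 arrays. Its 6 arrays had *Xist* at 2361 to 4750 and *Eif2s3y* at 0.316 to 9.84, against 9.59 to 20.3 and 489 to 622 in set 3, and the part of this difference between the sets was not tested.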

How the data were processed

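The deposited values are linear intensities, 1 per probe set and array, which the authors had scaled to a mean of 150 per array once 2% of probe sets at either end are set aside. The scale was read from the values, and the software that made them was not given in the sources used here. The arrays hold 45101 probe sets: 64 controls, which were dropped, 34945 with a single gene symbol, 932 with several and 9160 without one. Values were transformed as log2(intensity + 16), where the added 16 understates differences of dim genes, and were then quantile-normalized over 21 arrays. The filter on low values kept the upper 60% of probe sets by mean, and where a gene had several, the brightest one stood for it. Intensities are printed as deposited, and log2 differences come from normalized values.

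Bitransgenic and monotransgenic arrays were compared with limma 3.58.1 in R 4.3.3, with a coefficient for each of the 5 groups of sets 1 and 3 (15 arrays, 10 residual degrees of freedom), moderated variances with a trend, two-sided tests and Benjamini-Hochberg adjustment over 12499 genes at 0.05. Experiment 2 was left out of this fit because its arrays vary more, and the fits over all 21 arrays and over set 3 alone are printed beside it. The members, gene lists, fit and tests were chosen with earlier results of these data known. The named genes are *Rtn4r*, then called genes without overlap between groups, filled to 24 by lowest p among genes without overlap. To these were added up to 3 genes of lowest p among the members without overlap in each of 36 lists. For each difference between sets 5 genes were added, with or without overlap. One list counted in the totals is not reported here by itself. Replicate numbers follow deposit order and pair no samples. The title prefixes 1217 and 1215 are each shared by 1 array of both groups, and the deviations of those pairs correlated at 0.21 and 0.005. The pair at 0.21 was monotransgenic replicate 2 with bitransgenic replicate 1. Pairs across the groups without a shared prefix ran from -0.19 to 0.15. The scripts were tested on simulated data. The number of arrays limits the precision. Figures were drawn with matplotlib from these values.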

Additional observations from a re-analysis of the deposited data

Results flagged for a closer look

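Among the 27022 probe sets tested one by one, 4798 have no gene symbol and so belong to no gene of the report. One of these, 1443037_at, was lower in the bitransgenic group of set 3, by -0.703 on the log2 scale (adjusted p = 0.0258, limma over 15 arrays), and was 1 of 5 past the threshold. It is listed because it is a signal in data that the comparisons by gene do not use.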

How the results depend on the processing

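The count of 1 gene in set 3 became 0 over all 21 arrays, without the variance trend and with probe sets averaged per gene. It became 2 with a pseudocount of 64 and with the title prefix as a block, 3 with every probe set tested and at a threshold of 0.1, and 39 over all 21 arrays with array weights (27 higher, 12 lower). Leaving out 1 array gave 0 to 360, the highest without monotransgenic replicate 2. The *Rtn4r* difference was 2.47 with set 3 alone and 2.56 with array weights, where it passed, and 2.34 to 2.59 without 1 array, where it passed only without monotransgenic replicate 2. The replicate numbers are deposit order and pair nothing; the title prefix, shared by 1 array of both groups for 1217 and for 1215, served in place of a replicate block and gave an *Rtn4r* difference of 2.51 (adjusted p = 0.352). For set 3 minus set 1, the count of 0 became 1 with the prefix block and 0 to 3 without 1 array; for set 3 minus experiment 2 it became 52 with array weights, 1 with the actin ratio as a covariate and was 0 without 1 array. The differences of 85 genes gave 1671 values under the alternatives, of which 1619 kept direction and side of the threshold, 7 lost the call (*Lrrtm1* each time), 44 gained it and 1 reversed: *Kcnma1*, at -0.054 with its probe sets averaged. The cause of these changes was not tested. Of 683 list medians under alternatives, 639 moved by less than the spread between arrays. The 3 arrays a group and intensities without detection calls limit what dim genes show.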
